A study of Mus musculus with 12 samples.

Results

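The PGC-1 family of transcriptional coactivators and the factors that act with it on mitochondrial genes were followed as 10 genes in mouse tibialis anterior muscle, out of 13865 genes in 3 tables of gene expression. The 10 were chosen by name: the coactivators Ppargc1a (PGC-1α) and Ppargc1b (PGC-1β), their muscle partner Perm1, the nuclear receptors Esrra, Esrrg, Ppara and Ppard, the nuclear respiratory factors Nrf1 and Gabpa, and the mitochondrial transcription factor Tfam. All 10 were present in all 3 tables and all passed the filter on low values in every comparison. RNA from whole muscle was sequenced in 12 libraries, 4 in each of 3 groups of C57BL/6J mice. Sham mice carried no tumour and ate standard chow. KPC mice ate the same chow, and cells of the mouse pancreatic cancer line KPC had been placed surgically in their pancreas to form tumours. KPC_UA mice carried the same tumours and ate standard chow supplemented with ursolic acid, a plant triterpenoid. The labels do not give the sex or age of the mice, the amount of ursolic acid, the time of sampling or what the Sham mice were injected with, and they do not say that each library came from a different mouse, so the spread behind the p-values may in part be technical.

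PGC-1 coactivators bind no DNA themselves. They are recruited by nuclear receptors and other transcription factors, raise transcription of genes for oxidative phosphorylation and fatty acid oxidation, and are best known in muscle from endurance training and from the high mitochondrial content of oxidative fibres. The estrogen-related receptors carry much of this programme, the PPARs bind fatty acids and drive genes of fat use, NRF1 and the GABP complex act on nuclear genes for respiratory chain subunits, and TFAM packages mitochondrial DNA and helps start its transcription.

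Reads in listed genes numbered 22.3 to 32.0 M per library. Genes of fast muscle fibres had summed normalised read counts between 4270700 and 5356800 in all 12 libraries, with all 9 measured, while the 8 slow fibre genes summed to 1336 to 3405. Single fibre genes are taken up below with the markers of other cell types. KPC replicates 1 and 4 stood apart from the other libraries. Their scores on the first principal component over all genes, with 54.7% of the variance, were 120.6 and 50.6, and the other 10 libraries scored from -32.6 to 11.98. Each library was also read for transcript length, as the median log2 difference from the Sham mean of genes with at least 5 kb of exon minus that of genes with at most 2 kb. This measure was -0.37 in Sham replicate 1, -0.38 in KPC replicate 4 and -0.41 in KPC_UA replicate 2, was 0.37 in KPC replicate 1, and lay between -0.06 and 0.23 in the other libraries.

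The regulators differed widely in level in Sham muscle. Levels of different genes were compared as normalised read counts per kb of exon. Perm1, a muscle protein induced by PGC-1 and estrogen-related receptors, stood highest at 2100.3 ± 374 (SD, n = 4), above 97.1% of genes. Esrra followed at 845 ± 115 and Tfam at 240.4 ± 14.6, and neighbours in this upper part of the order did not overlap. Ppargc1a at 136 ± 14.4, Gabpa at 126 ± 21.1, Ppard at 104 ± 3.47, Esrrg at 83.8 ± 21.8, Ppargc1b at 83.1 ± 11.3 and Ppara at 52.5 ± 24.6 came next, and each of these overlapped its neighbour in this order. Nrf1 was lowest at 27.5 ± 1.61, above 32.6% of genes and below every Sham library of Ppara.

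Levels by library are given from here on as normalised read counts, that is reads divided by a size factor set over the 12 libraries. Ppargc1b, the coactivator also known for its part in mitochondrial biogenesis and in oxidative fast fibres, read 328, 295, 307 and 396 in Sham replicates 1 to 4. In KPC replicates 1 to 4 it read 38.2, 224.5, 189.6 and 91.9. In KPC_UA replicates 1 to 4 it read 390.5, 229, 204 and 205. Every KPC library lay below every Sham library, replicate 1 far below the rest, while the KPC_UA group spanned the upper KPC and the Sham values.

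Perm1 showed the same order of groups. It read 9770.2, 6837, 7075 and 9091 in Sham, 1259, 5893, 5158 and 2843 in KPC, and 11937, 7319, 4895 and 6738 in KPC_UA, in each case for replicates 1 to 4. KPC and Sham did not overlap. KPC_UA reached above all Sham libraries in replicate 1 and below all of them in replicates 3 and 4, with replicate 3 inside the KPC range.

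Esrra, the estrogen-related receptor that PGC-1 proteins use on genes of oxidative phosphorylation, read 4440.1, 3310.1, 3443 and 3633 in Sham. It read 939, 2744, 3067 and 2029 in KPC, again for replicates 1 to 4, and 3875, 4235, 2931 and 3760.1 in KPC_UA. All KPC libraries were below all Sham libraries, and KPC replicates 1 and 4 were the lowest of all. KPC_UA replicate 3 alone of its group fell inside the KPC range.

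Ppargc1a differed from these. Its Sham libraries read 866, 876, 816 and 1036, its KPC libraries 639, 958, 937 and 586, and its KPC_UA libraries 1087, 833, 719 and 871. KPC replicates 2 and 3 lay inside the Sham range, and only replicates 1 and 4 lay below it. Esrrg, the estrogen-related receptor of oxidative muscle and heart, behaved alike: 445, 391.9, 544 and 700.1 in Sham, 228, 531, 542 and 209.8 in KPC, and 656, 406, 468 and 499 in KPC_UA. Its KPC replicates 2 and 3 were again inside the Sham range. Tfam read 991 to 1142 in Sham and 1044 to 1238 in KPC_UA, while KPC replicates 1 to 4 read 655, 1129, 1043 and 842.

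**Figure D1:**
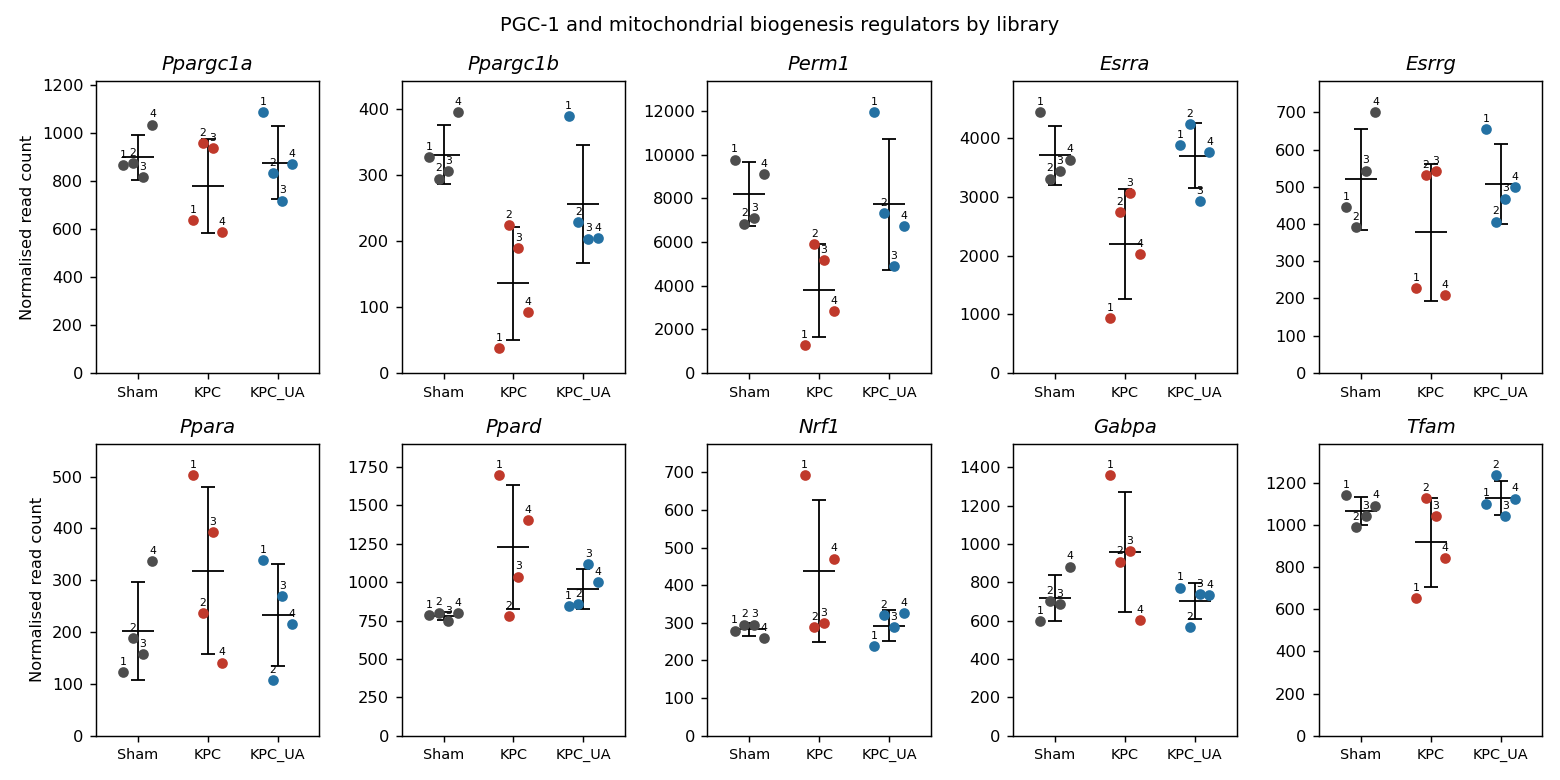
Normalised read count (y axis, from 0) of each of the 10 genes in the Sham, KPC and KPC_UA groups (x axis). Points are libraries with their replicate number, bars are the mean and SD (n = 4); Ppargc1b, Perm1 and Esrra have all KPC points below all Sham points.

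The remaining regulators were read at higher levels in some KPC libraries. Nrf1, which activates genes of the respiratory chain and of mitochondrial DNA transcription, read 279, 295, 295 and 260.1 in Sham, 693, 288, 299 and 471 in KPC, and 238, 319, 289 and 325 in KPC_UA. KPC replicates 1 and 4 alone were far above the rest. Ppard, the main PPAR of skeletal muscle, read 744 to 802 in Sham, the narrowest range of the 10 genes for its level, then 1698, 779, 1035 and 1404 in KPC and 844, 856, 1115 and 999.9 in KPC_UA. KPC replicate 2 lay within the Sham range, and all 4 KPC_UA libraries lay above it.

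Ppara, best known as the PPAR of liver and also active in muscle, read 123, 189, 157 and 337 in Sham, 503, 237, 394 and 141 in KPC and 339.5, 107, 269.7 and 216 in KPC_UA. Gabpa, the DNA-binding subunit of the GABP complex, read 596, 701, 685 and 883 in Sham, 1361, 908, 962 and 602 in KPC and 772, 566, 738 and 734 in KPC_UA. The groups overlapped for both genes. In each group the lowest library was the one that read long transcripts least (Sham 1, KPC 4 and KPC_UA 2), for Ppara and for Gabpa. This was so in 2 groups for Esrrg, in 1 for Ppargc1a and in none for the other 6 genes.

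Muscle of tumour-bearing mice was compared with Sham to ask what the tumour does to muscle. Ppargc1b was 2.96-fold lower, Perm1 2.51-fold lower and Esrra 1.84-fold lower. Folds here and below compare means of log2 values. Plain means of the deposited values differed by less, at 132.6, 3691 and 2138 in KPC against 323.1, 7988 and 3614 in Sham. None of the 10 passed the limma test (moderated linear model on log2(value + 1), Benjamini-Hochberg adjusted p under 0.05 over all genes), which called 1.18% of 13542 genes. The log2 difference of Ppargc1b was -1.57 (SE 0.48, adjusted p = 0.114, limma), that of Perm1 was -1.33 (SE 0.43, adjusted p = 0.124) and that of Esrra was -0.88 (SE 0.33, adjusted p = 0.158). By unadjusted limma p under 0.05, 4 of the 10 passed (Ppargc1b, Perm1, Esrra and Ppard), beside 24.5% of all genes. In whole muscle, fewer cells of a type and less RNA per cell cannot be told apart.

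The call on Ppargc1b depended on the test. DESeq2 on the recovered reads called Ppargc1b lower (log2 difference -1.29, adjusted p = 0.0404) and no other member, beside 11.8% of all genes called in either direction and 5.03% called lower. The authors' deposited table gave Ppargc1b the same log2 fold change of -1.29 and an adjusted p of 0.0404. Perm1 missed that threshold (adjusted p = 0.0579, DESeq2), and edgeR called none of the 10 (adjusted p = 0.120 for Ppargc1b) and 1.59% of all genes. Groups did not overlap for 3 of the 10, Ppargc1b, Perm1 and Esrra, all lower in KPC, while 19.1% of all genes did not overlap in either direction and 9.11% of all genes did not overlap and were lower.

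The other 7 genes differed by less. Ppargc1a was lower by a log2 difference of -0.24 (SE 0.20, adjusted p = 0.471, limma), Tfam by -0.25 (SE 0.20) and Esrrg by -0.57 (SE 0.35). Ppara was higher by 0.60 (SE 0.42), Ppard by 0.59 (SE 0.23), Nrf1 by 0.53 (SE 0.27) and Gabpa by 0.37 (SE 0.25). Of these 7, Ppard had the smallest adjusted p, 0.167 by limma, and all 7 overlapped between groups. The 10 genes thus split into 6 with a negative and 4 with a positive difference, with a median of -0.24 beside 0.01 over all genes tested.

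KPC replicates 1 and 4 carried much of these differences. Both had been singled out by the first principal component of these same data, with which Ppargc1b had r = -0.975. Calls made in their absence are therefore no separate support. Without both, which left KPC replicates 2 and 3, Ppargc1b was at a log2 difference of -0.67. It passed the limma test (adjusted p = 0.0459), beside 603 of 13380 genes, against 160 of 13542 with all libraries. Perm1 was at -0.55 (adjusted p = 0.0836) and Esrra at -0.34 (adjusted p = 0.194). Ppard was at 0.20 and Nrf1 at 0.06, and the differences of Ppargc1a (0.08), Esrrg (0.08) and Tfam (0.03) turned positive. Gabpa was at 0.40 and Ppara at 0.70. Without KPC replicate 1 alone Ppara was at 0.33 and Gabpa at 0.19, and without KPC replicate 4 alone they were at 0.94 and 0.58.

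**Figure D2:**
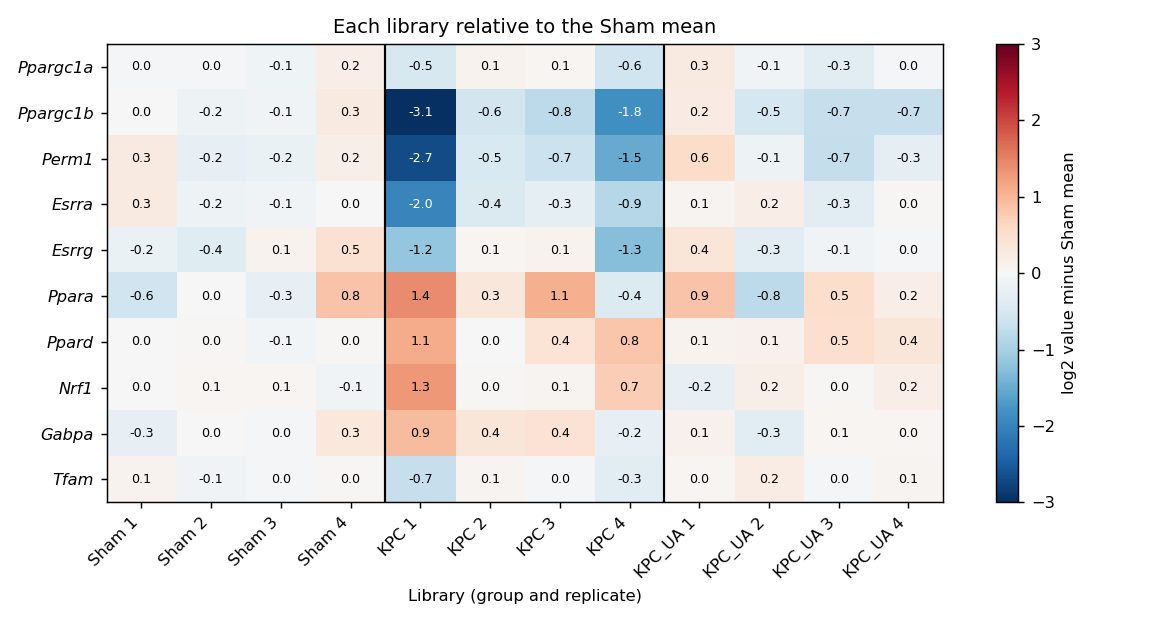
Log2 value of each gene (rows) in each library (columns) minus its mean over the 4 Sham libraries, from blue (lower) to red (higher). KPC replicate 1 holds -3.1 for Ppargc1b, -2.7 for Perm1 and 1.3 for Nrf1, and KPC replicate 4 holds -1.8, -1.5 and 0.7, while KPC replicates 2 and 3 hold -0.6 and -0.8 for Ppargc1b.

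Ratios of members within each library were read next. A ratio removes only a shift in level that is equal for both genes. Ppargc1b and Ppargc1a went with the first principal component unequally, with r = -0.975 and -0.713, so their ratio can still carry that shift. Reads of Ppargc1b per read of Ppargc1a, a ratio compared only between libraries, were 0.379, 0.337, 0.376 and 0.382 in Sham replicates 1 to 4. The ratio was 0.0598, 0.234, 0.202 and 0.157 in KPC and 0.359, 0.275, 0.284 and 0.236 in KPC_UA. All KPC libraries were below all Sham libraries and below all KPC_UA libraries, although the gap between KPC replicate 2 (0.234) and KPC_UA replicate 4 (0.236) was small. Reads of Perm1 per read of Ppargc1a were 7.80 to 11.3 in Sham, 1.97 to 6.15 in KPC and 6.81 to 10.98 in KPC_UA, and those of Esrra per read of Ppargc1a were 3.51 to 5.13, 1.47 to 3.46 and 3.57 to 5.08, with KPC below both other groups in each case, by a small gap for Esrra. Ratios of Esrra to Esrrg, Ppard to Ppara and Nrf1 to Tfam were also computed, and KPC overlapped Sham in each. Their mean log2 ratios differed between KPC and Sham by -0.31, -0.02 and 0.79. All ratios were chosen after the members' values were seen, so their p-values are not given. The share of other gene pairs whose ratio separates these groups is not given either.

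Across the 12 libraries Ppargc1b and Perm1 followed each other closely, with Pearson's r = 0.978 and Spearman's rho = 0.944 on log2 values, and r = 0.870 without the 2 libraries farthest from the median of Ppargc1b. Over the 8 Sham and KPC_UA libraries alone r was 0.824. Ppargc1b and Nrf1 ran opposite to each other (r = -0.970, rho = -0.818, r = -0.769 without the 2 farthest libraries). Ppargc1a went with Esrrg (r = 0.902, rho = 0.727, r = 0.688 without the 2 farthest). The libraries of a pair share their depth and their place on the first principal component, on which Ppargc1b had r = -0.975, Perm1 -0.961, Esrra -0.961 and Nrf1 0.941, so these values describe the libraries and carry no test.

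Ppara and Gabpa formed a pair of their own, with r = 0.906 and rho = 0.951, and r = 0.872 without the 2 farthest libraries. Both went with the reading of long transcripts: r was 0.889 for Ppara (rho = 0.909, 0.840 without the 2 farthest libraries) and 0.856 for Gabpa (rho = 0.965, 0.811 without them), while Ppargc1b had -0.144 and Nrf1 0.052. Gabpa has 5.69 kb of exon and Ppara 3.84 kb, and Nrf1, with 10.28 kb, is the longest of the 10. Log2 values were also corrected in each library for a trend with exon length, which removes only what genes of like length share. This cannot show whether the reading of long transcripts shaped the levels of Ppara or Gabpa, which was not tested. With the correction the KPC against Sham difference was 0.61 for Ppara and 0.35 for Gabpa, against 0.60 and 0.37 uncorrected. Without the 3 libraries low in long transcripts it was 0.74 for Ppara and 0.49 for Gabpa (adjusted p = 0.390 and 0.359, limma), and Ppargc1b was at -1.48 (adjusted p = 0.363).

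**Figure D3:**
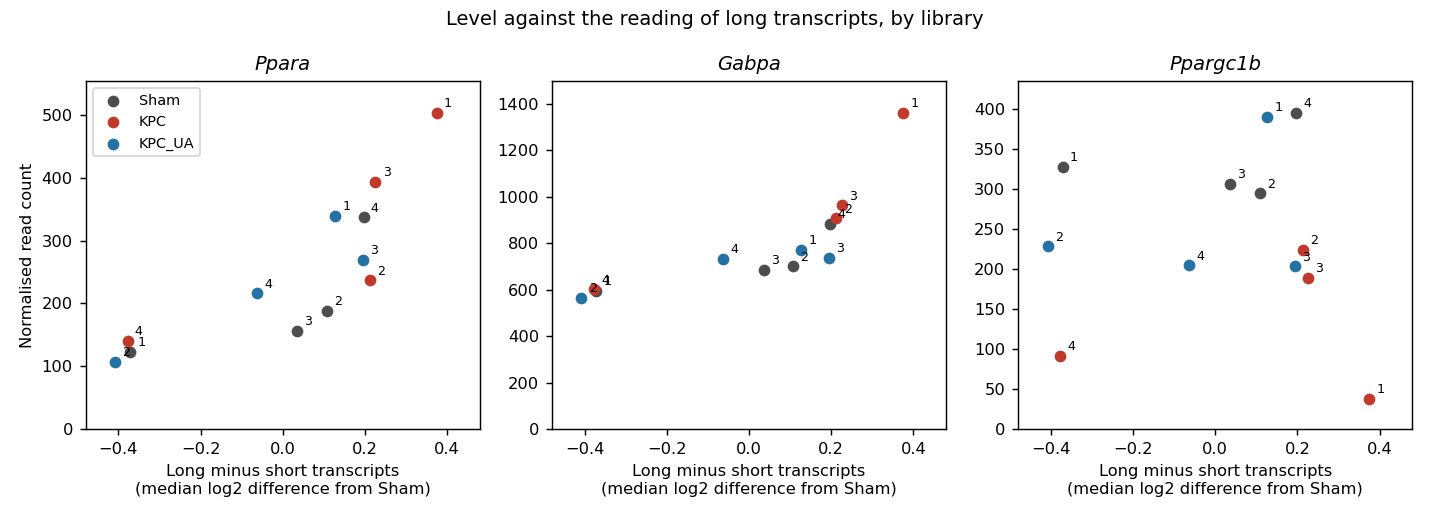
Normalised read count (y axis, from 0) of Ppara, Gabpa and Ppargc1b against the reading of long transcripts (x axis, log2) in the 12 libraries, numbered by replicate. Ppara (r = 0.889) and Gabpa (r = 0.856) are lowest in the 3 libraries at the left, Sham 1, KPC 4 and KPC_UA 2, and Ppargc1b (r = -0.144) is not.

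The genes whose pattern over the 12 libraries was most like that of Ppargc1a, among 10566 genes searched, were Trdmt1, a tRNA methyltransferase (r = 0.933), Asah1, the lysosomal acid ceramidase (r = 0.927), and Cs (r = 0.923). Cs encodes citrate synthase, the entry enzyme of the citric acid cycle whose activity is a common measure of mitochondrial content. Without the 2 libraries farthest from the median r was 0.873, 0.929 and 0.760. Cs read 18242 to 21705 in Sham, 16176, 20628, 20937 and 15526 in KPC replicates 1 to 4 and 18435 to 20343 in KPC_UA. It was low in the same pair of KPC libraries as Ppargc1a. Because Cs was picked for its likeness to Ppargc1a over these libraries, this is no separate support.

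With ursolic acid in the chow, the comparison with untreated tumour-bearing mice asks what the compound does to muscle in their presence. Perm1 was 2.27-fold higher in KPC_UA than in KPC, Ppargc1b 2.22-fold and Esrra 1.83-fold, and none passed the test. Their log2 differences were 1.18 (SE 0.46) for Perm1, 1.15 (SE 0.50) for Ppargc1b and 0.88 (SE 0.34) for Esrra, each at an adjusted p of 0.382 by limma. By unadjusted limma p these 3 of the 10 were under 0.05, beside 12.7% of all genes. Limma and edgeR called 0 of 13522 and 0 of 13437 genes in this comparison (0%), and no member was called by DESeq2, which called 0.772%, or in the authors' deposited table, where 0.764% were called. All 10 genes overlapped between the groups, while 7.92% of all genes did not.

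The other 7 differences between KPC_UA and KPC were smaller: 0.55 (SE 0.34) for Esrrg, 0.33 (SE 0.20) for Tfam, 0.19 (SE 0.22) for Ppargc1a, -0.49 (SE 0.28) for Nrf1, -0.41 (SE 0.44) for Ppara, -0.40 (SE 0.24) for Gabpa and -0.31 (SE 0.24) for Ppard. The comparison shares the 4 KPC libraries with that against Sham, so the opposite signs of the members in both cannot be read as separate evidence. Without KPC replicates 1 and 4, Ppargc1b was at 0.26, Perm1 at 0.41 and Esrra at 0.34, and Ppargc1a (-0.13), Esrrg (-0.11) and Ppard (0.07) changed sign.

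Muscle of KPC_UA mice was also compared with Sham directly. Esrra was at a log2 difference of 0.00 (SE 0.14) and Ppargc1a at -0.04 (SE 0.13), and Esrrg, Gabpa, Nrf1 and Tfam lay between -0.02 and 0.08. Perm1 was at -0.14 (SE 0.23) and Ppara at 0.20 (SE 0.36). Ppargc1b was at -0.41 (SE 0.20, adjusted p = 0.663, limma) with replicates 2, 3 and 4 below all Sham libraries and replicate 1 among them. Ppard was higher by 0.28 (SE 0.11, adjusted p = 0.521, limma), the only 1 of the 10 whose groups did not overlap, beside 4.10% of all genes and 2.08% in that direction. No member was called by limma or edgeR, which called 0% of genes, or by DESeq2 or the authors' deposited table, which each called 0.693%; 7.94% of genes had an unadjusted limma p under 0.05, and of the members Ppard alone did.

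**Figure D4:**
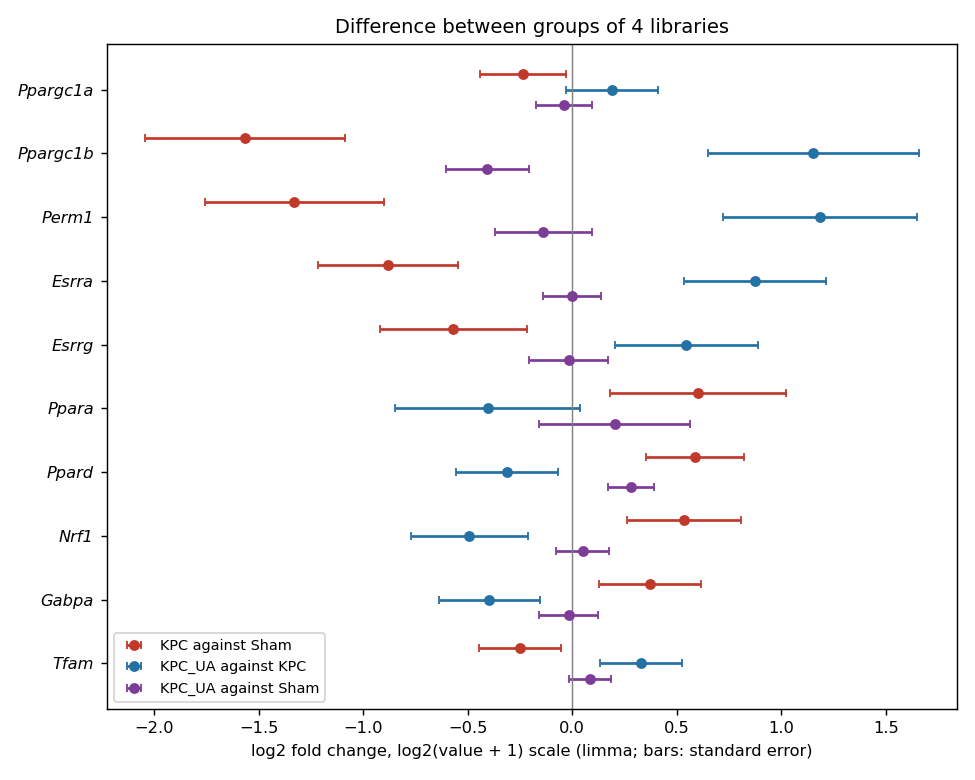
Log2 fold change with its standard error (x axis, limma on log2(value + 1)) of the 10 genes in 3 comparisons of 4 libraries against 4. Ppargc1b, Perm1 and Esrra lie at -1.57, -1.33 and -0.88 in KPC against Sham, at 1.15, 1.18 and 0.88 in KPC_UA against KPC, and at -0.41, -0.14 and 0.00 in KPC_UA against Sham.

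Promoters are shown for Perm1 and Esrra, which were low together in every KPC library, and for Ppargc1a and Tfam, which were not. Sequences are from RefSeq on GRCm38.p6 and run from 250 bases before to 50 after the start site. They were present for 9 of the 10 genes, with none for Ppargc1b, which was not searched. Esrrg had 4 windows and Nrf1 had 2. Capitals mark matches, on either strand, to a nuclear receptor half-site (AGGTCA), a CRE half-site (TGACG, the core of the element bound by CREB) or a GABP element (CCGGAAG); positions are counted from the start site. Perm1 lies at chr4:156215677-156215976 on the plus strand, Esrra at chr19:6921759-6922058 on the minus strand, Ppargc1a at chr5:51567676-51567975 on the minus strand and Tfam at chr10:71237995-71238294 on the minus strand.
Perm1: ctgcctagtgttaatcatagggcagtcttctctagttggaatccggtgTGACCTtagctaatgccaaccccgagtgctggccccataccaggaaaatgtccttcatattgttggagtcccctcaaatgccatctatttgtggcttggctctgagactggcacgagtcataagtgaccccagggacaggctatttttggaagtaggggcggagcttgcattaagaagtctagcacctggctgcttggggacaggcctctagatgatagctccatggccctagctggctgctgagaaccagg
Esrra: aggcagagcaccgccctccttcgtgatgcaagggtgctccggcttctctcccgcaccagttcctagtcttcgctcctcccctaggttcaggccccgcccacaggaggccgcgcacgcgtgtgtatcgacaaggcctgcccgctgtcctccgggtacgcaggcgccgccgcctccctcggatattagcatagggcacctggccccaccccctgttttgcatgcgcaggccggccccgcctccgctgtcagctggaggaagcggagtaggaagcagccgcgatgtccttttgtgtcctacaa
Ppargc1a: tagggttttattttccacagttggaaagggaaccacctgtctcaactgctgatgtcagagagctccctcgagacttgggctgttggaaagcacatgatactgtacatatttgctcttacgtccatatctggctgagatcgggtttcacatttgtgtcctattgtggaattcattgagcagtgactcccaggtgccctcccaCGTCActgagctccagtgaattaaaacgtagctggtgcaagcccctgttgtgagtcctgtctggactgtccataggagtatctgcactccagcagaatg
Tfam: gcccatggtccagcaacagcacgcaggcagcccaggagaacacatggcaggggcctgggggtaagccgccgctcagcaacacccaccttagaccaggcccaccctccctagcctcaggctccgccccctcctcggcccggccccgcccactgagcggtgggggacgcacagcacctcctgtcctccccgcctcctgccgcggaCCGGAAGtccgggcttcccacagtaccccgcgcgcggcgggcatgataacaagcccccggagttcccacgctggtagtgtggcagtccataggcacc
The Perm1 window held a half-site at -202, that of Ppargc1a a CRE half-site at -49 and that of Tfam a GABP element at -47, and the Esrra window held none of the motifs searched. In the same windows of 32851 promoters, 16.3% held the nuclear receptor half-site, 20.8% the CRE half-site and 8.86% the GABP element. A GABP element also stood at -93 in the Gabpa promoter and a CRE half-site at -4 in that of Ppard, and the Ppara promoter held a CRE half-site at -222 and an NRF1 element (in 4.60% of promoters) at -31. No window of the 9 genes searched matched the estrogen-related receptor element TNAAGGTCA (1.28% of promoters), which contains the AGGTCA half-site. Nor did any match the full CRE TGACGTCA (1.79%), the PPAR direct repeat of that half-site (0.0396%) or the E-box CACGTG (7.15%). The promoters also differed in base composition. The Ppargc1a window had 48.7% G and C and 0.282 of the CpG count its base composition gives, and that of Perm1 52.3% and 0.195, while the windows of Esrra (66.0% and 0.781) and Tfam (70.3% and 0.586) were richer in both; the median G and C content of all promoters was 52.7%.

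Genes above the coactivators were read from lists of their known regulators; log2 differences and SE are those of limma. Of 21 kinase, calcium signalling and deacetylase genes tested in KPC against Sham, none passed limma and DESeq2 called 3, all lower, beside 11.8% of all genes called by DESeq2 in either direction and 5.03% called lower. They were Prkag3, the AMPK subunit of fast muscle (log2 difference -2.02, SE 0.54, adjusted p = 0.0205 by DESeq2), Prkag2, another AMPK subunit (-0.92, SE 0.27), and Camk2b, a calcium-dependent kinase subunit (-0.67, SE 0.17). Prkag3 read 2412 to 4530 in Sham and 353, 2394, 1429 and 498 in KPC replicates 1 to 4. Sirt1, the deacetylase that acts on PGC-1α, was at 0.78 (SE 0.28) and passed neither test. The median of the list was -0.13. Prkag3 was at -0.95, Prkag2 at -0.46 and Camk2b at -0.48 without KPC replicates 1 and 4, and there no gene of the list passed limma.

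Of 18 transcription factors that act on the Ppargc1a promoter, none passed limma, and DESeq2 called Foxo1 (1.84, SE 0.49) and Foxo3 (1.69, SE 0.42) higher and Bhlhe40, a repressor, lower (-1.08, SE 0.33), with adjusted p of 0.000334, 0.000618 and 0.0488; 11.8% of all genes were called by DESeq2. Foxo1 and Foxo3 are FOXO factors also known for genes of muscle protein breakdown. Without KPC replicates 1 and 4, limma called Foxo3 alone of this list (1.11, adjusted p = 0.0232), with Foxo1 at 0.99 and Bhlhe40 at -0.47. Of all 13380 genes tested in that setting, limma called 246 higher and 357 lower. Of 22 coactivator partners and corepressors, limma called Nr1d1 lower (-1.0, SE 0.20, adjusted p = 0.0472). It was at -0.94 (adjusted p = 0.00666, limma) without KPC replicates 1 and 4, libraries that stood out in these same data. Nr1d1 encodes REV-ERBα, a clock repressor of transcription, and read 4012 to 4990.2 in Sham and 1653 to 2898 in KPC, with no overlap. DESeq2 also called Rxrg, a partner of the PPARs, lower (-1.55, SE 0.45), and Lpin1, a coactivator of fatty acid oxidation genes (1.07, SE 0.32), and Pprc1, the third PGC-1 family member (0.90, SE 0.28), higher. Medians were 0.34 for the promoter factors and 0.28 for the partners. Without KPC replicates 1 and 4, limma called Rxrg (-0.69, adjusted p = 0.0325) beside Nr1d1, and Lpin1 and Pprc1 were both at 0.58. In KPC_UA against KPC neither test called a gene of these 3 lists. In KPC_UA against Sham limma called none, and DESeq2 called Nr1d1 (-0.69, adjusted p = 0.00722) and Bhlhe40 (-0.63, adjusted p = 0.0186) lower and Foxo1 higher (0.93, adjusted p = 0.0194), beside 0.693% of all genes.

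Genes below the regulators were read in 2 lists, whose difference was not tested. Of 24 targets of PGC-1 and the estrogen-related receptors, none passed limma, 16 had a negative difference and the median was -0.10. DESeq2 called Vegfa, an angiogenic factor, lower (-0.63, SE 0.19, adjusted p = 0.0376) and Bckdhb, of branched-chain keto acid breakdown, higher (0.44, SE 0.14, adjusted p = 0.0219), and Cycs, cytochrome c, was at -0.62 (SE 0.23) and Idh3a, of the citric acid cycle, at -0.62 (SE 0.25) without passing. Without KPC replicates 1 and 4 the median of this list was 0.07, with 13 positive and 11 negative, Vegfa was at -0.35, Bckdhb at 0.39, Cycs at -0.28 and Idh3a at -0.16, and none passed limma.

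Of 19 PPAR targets, limma called 4 higher and DESeq2 11, beside 0.354% and 6.79% of all genes called higher, and 18 of the 19 had a positive difference with a median of 0.74. Pdk4, a kinase that shuts off glucose oxidation, read 4963 to 12593 in Sham, 215820, 29310, 63257 and 48013 in KPC replicates 1 to 4 and 7186 to 29966 in KPC_UA, and its log2 difference in KPC was 3.09 (SE 0.54, adjusted p = 0.0379, limma). Ucp3, a mitochondrial carrier induced by fatty acids, read 2062 to 4091 in Sham and 5564 to 14377 in KPC (1.71, SE 0.31, adjusted p = 0.0379). Acot1 and Acot2, thioesterases of long-chain acyl-CoA, were called too (5.04 and 2.79). Their values are uncertain because reads of these near-identical neighbours can be split between them. Acot1 also read only 2.07 to 9.87 in Sham, against 56.1 to 1408 in KPC, so its log2 difference rests on few Sham reads. KPC did not overlap Sham for any of the 4. Without KPC replicates 1 and 4, the median was 0.55 and limma called 4 of 18 PPAR targets higher, beside 246 of 13380 genes. They were Pdk4 (2.48, adjusted p = 0.0331), Acot1 (3.37), Acot2 (1.72) and Angptl4, an inhibitor of lipoprotein lipase named after its values were seen. Ucp3 missed the threshold there (1.48, adjusted p = 0.0554). Limma called 0 genes without any 1 of the Sham libraries or without KPC replicate 3 or 4 (2277 to 3480 genes at unadjusted p under 0.05), so the calls on these targets, Nr1d1 and mt-Nd3 were lost there.

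The same PPAR targets in KPC_UA against KPC had 18 negative differences of 19 and a median of -0.35. None passed limma and DESeq2 called 4 lower, Ucp3 (-1.52, adjusted p = 0.0131), Acot1 (-3.89), Acot2 (-2.08) and Angptl4, beside 0.772% of all genes. The median without KPC replicates 1 and 4 was -0.32 over 18 tested, Ucp3 was at -1.29, Acot1 at -2.22 and Acot2 at -1.0, and limma called none. Against Sham, KPC_UA had a median of 0.29 over 18 tested, and neither test called one. In KPC_UA against KPC the targets of PGC-1 and the estrogen-related receptors had 19 positive differences of 24 and a median of 0.20, with none called by either test, and 14 positive and a median of 0.09 without KPC replicates 1 and 4.

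Genes of the mitochondrion itself were mostly not called. No gene of mitochondrial DNA maintenance (20 tested, median 0.17), import (16, median -0.05) or fusion and fission (10, median -0.04) passed limma or DESeq2 in KPC against Sham. Polg, the mitochondrial DNA polymerase, was at 0.50 (SE 0.18), Timm17b, of the inner membrane translocase, at -0.43 (SE 0.17) and Mief2, a fission receptor, at -0.70 (SE 0.22); without KPC replicates 1 and 4 they were at 0.36, -0.41 and -0.44. Of 13 genes encoded by mitochondrial DNA, mt-Nd3 alone was called, higher in KPC (1.37, SE 0.26, adjusted p = 0.0433, limma), and the list's median was 0.09. Without KPC replicates 1 and 4, which stood out in these same data, limma called mt-Nd3 (1.08, adjusted p = 0.0421), beside 246 of 13380 genes called higher. All 13 differences were positive there and the median was 0.37. mt-Nd3 read 1159 to 2305 in Sham and 3210.4 to 6001 in KPC, and 2054 to 4734 in KPC_UA.

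**Figure D5:**
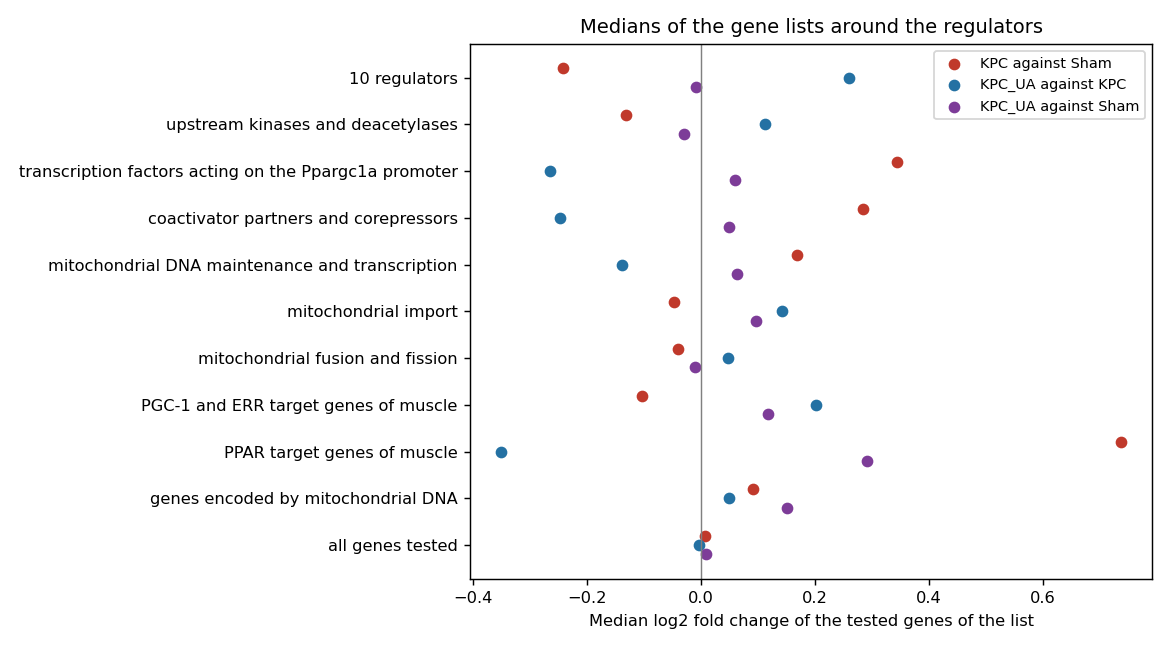
Median log2 fold change (x axis) of the 10 regulators and of lists of genes around them (y axis) in 3 comparisons. PPAR targets lie at 0.74 in KPC against Sham and -0.35 in KPC_UA against KPC, the 10 regulators at -0.24 and 0.26, and all genes tested at 0.01 and 0.00.

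Markers of other cell types were summed in each library. Summed counts of 7 fibroblast markers were 11345 to 16562 in Sham, 4319 to 7174 in KPC and 6741 to 11981 in KPC_UA, with no marker at 0. In KPC against Sham limma called Col1a1, Col1a2 and Col3a1 lower, and the 7 log2 differences ranged from -2.325 to -0.357. With Sham means of 2804, 3448 and 3581.5, these collagen genes were a large part of the sums. DESeq2 called 6 of the 7 lower, beside 5.03% of all genes. Erythroid markers, 6 of 6 measured, summed to 749 to 3445 in Sham, 2790 to 10659 in KPC and 2486 to 15997 in KPC_UA, with none called by limma and Hbb-bs, Hbb-bt, Alas2 and Slc4a1 called higher by DESeq2. Of 6 adipocyte markers tested, limma called Plin1 (-3.02), Cfd and Cidec lower in KPC and DESeq2 called 5 lower. Summed counts of the 5 in all tables overlapped, at 2711 to 4008 in Sham and 2179 to 3769 in KPC. Plin1, Cfd and Cidec were a small part of these sums, with Sham means of 52.2, 297 and 39.3. Without KPC replicates 1 and 4 limma called 5 of the 6 lower, beside 357 of 13380 genes. Endothelial (7 genes) and macrophage (7 genes) sums overlapped between all groups, and limma called none of these genes. DESeq2 called Cldn5 higher (1.16, adjusted p = 0.00806) and Kdr lower (-1.06, adjusted p = 0.0410) in KPC against Sham and Cldn5 lower in KPC_UA against KPC (-1.28, adjusted p = 0.00740), and without KPC replicates 1 and 4 limma called Kdr lower against Sham (-0.97, adjusted p = 0.0189). Among the fast and slow fibre genes, limma called none, and DESeq2 called only Myl2, of slow fibres. It was lower than in Sham in KPC (-2.14, adjusted p = 0.000527, DESeq2) and in KPC_UA (-1.61, adjusted p = 0.00732, DESeq2). The Sham mean of Myl2 was low, at 52.95. In KPC against Sham, 5 slow fibre genes had a negative and 3 a positive difference. Of the hepatocyte markers, Alb, Apoa1 and Ttr were tested in the tables that hold Sham, where none passed limma. The part of these cells in the levels of the 10 regulators was not tested.

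Positions limit a few values. On GRCm38 (GENCODE M21), Ppargc1a lies at chr5:51454250-51567726, Perm1 at chr4:156215868-156221307, Nrf1 at chr6:30047988-30153458 and Ppard at chr17:28232700-28301474. Exons of Gabpa (chr16:84834925-84863779) share 397 bases, 7.0% of their length, with the opposite-strand gene Atp5j, and exons of Esrra (chr19:6910977-6921813) share 73 bases, 1.7%, with Trmt112. Whether counting used strand is not known here, so the levels of Gabpa and Esrra are uncertain by reads in those bases.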

How the data were processed

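The submitters' processing notes name bcl2fastq 2.17, featureCounts, Subread 1.5.2 and the genome GRCm38, with aligner, annotation, strand setting and test not given in the sources used here. Deposited by the authors were 3 tables, 1 for each pair of groups. Per the file headers they hold a signal, normalised, for each gene in each library, a log2 fold change, and p-values raw and adjusted. Within a column these signals are whole multiples of a step, so reads were recovered as counts (tolerance 0.01 reads). The deposited log2 fold changes of the members matched those of DESeq2 on these reads (-1.285 for Ppargc1b in KPC against Sham in both). Calls by DESeq2 and by the deposited tables are therefore not separate results.

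Levels by library are recovered reads of the 13244 genes in all 3 tables over DESeq2 1.42.0 size factors of 12 libraries. Tests were limma 3.58.1 in R 4.3.3 (two-sided, variance trend, robust) within each table, on log2(value + 1) where the mean was at least 10, adjusted by Benjamini-Hochberg over all genes; the scale compresses changes of low genes. Alternatives were edgeR 4.0.16, DESeq2, the authors' adjusted p, other pseudocounts, filters and scalings, a length correction, a replicate block and left-out libraries. Scripts were tested on simulated data. The members, lists and tests were chosen with earlier results of these data known. All 10 members are named, and of each list up to 4 genes with the smallest limma p in KPC against Sham plus those limma called. Genes like Ppargc1a were the 3 with the highest Pearson's r. The ratios, and the list genes shown by library, were chosen after values were seen. Coordinates and exon lengths are from GENCODE M21 and promoters from RefSeq. Replicate numbers did not pair samples.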

Additional observations from a re-analysis of the deposited data

Results flagged for a closer look

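Of 30 sets of 4 libraries, 10 genes in 3 groups, 1 held a library far from the others. Gabpa in KPC_UA replicate 2 read 566, against 734 to 772 in the other 3 libraries of its group, a gap of 0.835 of the group's range, just past Dixon's critical value for 4 samples. Chance flags about 1 in 20 such sets. The same library read long transcripts least of the 12, at -0.41 on the log2 scale, and its part in the value was not tested.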

How the results depend on the processing

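The sign of Ppargc1b, Perm1 and Esrra in KPC against Sham and in KPC_UA against KPC was kept under every alternative run. Genes called in KPC against Sham, 160 by limma, numbered 87 with a mean of at least 50, 257 with quantile normalisation, 1045 with limma and 1442 with edgeR over 12 libraries, 1595 by DESeq2 and by the authors' deposited table, 603 without both KPC replicates 1 and 4, and 0 without the 3 libraries low in long transcripts, a setting chosen after seeing the data (1864 at unadjusted p under 0.05). Leaving out 1 library gave 0 to 1352 genes and 0 to 3 members. The most came without KPC replicate 2, where limma called 1352 of 13520 genes, among them Ppargc1b (adjusted p = 0.0337), Perm1 (0.0398) and Ppard (0.0416). The count was 0 without each Sham library in turn and without KPC replicates 3 or 4. Of the members, 1, Ppargc1b, was called by DESeq2 and the authors' deposited table, which gave the same log2 fold change. It was also called by limma over 12 libraries (adjusted p = 0.0465). Ppargc1b was also called without both KPC replicates 1 and 4, libraries that stood out in these same data. Over all alternatives its adjusted p ranged from 0.0337 to 0.363. The cause of these differences was not tested.

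In KPC_UA against KPC, 0 genes by limma became 2 with edgeR over 12 libraries, 100 by DESeq2, 99 in the authors' deposited table, 2 without both KPC replicates 1 and 4 and 0 to 3 with 1 library left out. In KPC_UA against Sham, 0 became 94 by DESeq2 and in the authors' deposited table, 7 with the length correction, 4 without the 3 libraries low in long transcripts and 0 to 4 with 1 library left out.

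Without both KPC replicates 1 and 4, Ppargc1a (0.082), Esrrg (0.080) and Tfam (0.027) changed sign against Sham, and Ppargc1a (-0.13), Esrrg (-0.11) and Ppard (0.074) in KPC_UA against KPC. In KPC_UA against Sham, where Esrra was at 0.0004, it was at -0.0010 with TMM scaling, -0.028 with quantile normalisation, -0.0030 with edgeR and -0.0060 with limma over 12 libraries, and without the 3 libraries low in long transcripts Esrrg was at 0.019 and Nrf1 at -0.00057. With 1 library left out, log2 differences there ranged from -0.15 to 0.053 for Ppargc1a, -0.37 to 0.057 for Perm1, -0.071 to 0.11 for Esrra, -0.15 to 0.14 for Esrrg, -0.017 to 0.53 for Ppara, -0.0024 to 0.15 for Nrf1 and -0.099 to 0.090 for Gabpa.

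Same-numbered samples correlated from -0.27 to 0.14 in their deviations, so the numbers were not taken as pairs. With the replicate number as a block, 66 genes were called in KPC against Sham, and no member's call changed in any comparison. With 4 libraries a group, no other scaling moved the median gene by more than 0.02 on the log2 scale.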
